A study of Homo sapiens with 6 samples.

Results

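The genes described here encode the subunits of the chaperonin CCT, also called TRiC: TCP1, CCT2, CCT3, CCT4, CCT5, CCT6A, CCT7 and CCT8. They were chosen by gene symbol, and all 8 were found among the 27420 genes of the expression table. RNA was sequenced from 6 libraries of A673 and SKNMC cells, established cell lines of Ewing sarcoma, a tumor driven in most cases by the EWS-FLI1 fusion protein. The treatments of each line were the solvent DMSO and THZ1, a covalent inhibitor of the transcriptional kinase CDK7, at 50 nM and 200 nM, all for 6 h. Each condition has 1 library, so the spread between replicates of a condition is unknown and the values of a single line carry no error. A fit over both lines, with the line as a block, was the only test made.

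CCT folds newly made proteins inside a closed cavity at the expense of ATP. It consists of 2 stacked rings, each built from 1 copy of all 8 related subunits in a fixed order, and actin and tubulin are its classical substrates. The subunits TCP1, CCT2, CCT4 and CCT5 form the side of the ring that binds ATP more tightly, and CCT3, CCT6A, CCT7 and CCT8 form the other side. Prefoldin hands unfolded actin and tubulin chains over to the ring, and phosducin-like proteins assist it with other substrates.

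Expression is given as FPKM, the number of sequenced fragments corrected for transcript length and library size, as the authors deposited it, so levels can be compared between genes per length. Changes are given as log2((FPKM + 1) / (FPKM + 1)), and a gene counts as active in a line if it exceeded 1 FPKM with DMSO, as 11077 genes did in A673 and 11896 in SKNMC. FPKM is a share of a library, and the RNA content per cell is not known from it. The sums of the listed FPKM lay within 97.8% and 100.5% of the DMSO library of the line. The Ewing sarcoma marker CD99 was at 504 FPKM in A673 and 313 FPKM in SKNMC with DMSO, and NR0B1 was at 58.6 and 25.2 FPKM. Of 7 markers of other cell types, 6 were listed, with 2 active genes among them in A673 and 3 in SKNMC. These were KRT18, a keratin of epithelial cells, at 125 FPKM in A673 and 143 FPKM in SKNMC with DMSO, the collagen gene COL1A2 of mesenchymal cells at 88.8 and 62.6 FPKM, and in SKNMC also PTPRC. The muscle gene MYOG was listed at 0 in all 6 libraries. PTPRC, a marker of white blood cells, was at 0.0201 FPKM in A673 and 10.2 FPKM in SKNMC with DMSO, and its part in differences between the lines was not tested.

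The 8 genes lie apart from each other in the genome (hg19), on 7 chromosomes. TCP1 lies on the minus strand at chr6:160199530-160210781 and CCT2 on the plus strand at chr12:69979114-69995350. CCT3 is on the minus strand at chr1:156278759-156337664, CCT4 on the minus strand at chr2:62095224-62115939 and CCT5 on the plus strand at chr5:10250033-10266524. CCT6A is on the plus strand at chr7:56119323-56131682, CCT7 on the plus strand at chr2:73460548-73480149 and CCT8 on the minus strand at chr21:30428126-30446118. CCT3 spans 58.9 kb in the table, and the other genes span between 11.3 kb and 20.7 kb. Their canonical GENCODE transcripts have 11 to 16 exons. GENCODE names 15 pseudogenes after these genes, 5 of them after CCT6, and 0 of these are in the expression table. How reads shared with such copies were counted is not given in the sources used here, and the levels are uncertain to that extent. The annotated ends of ACAT2 and TCP1 overlap by 615 bases on opposite strands, COMMD1 overlaps CCT4 by 81 bases, and TSACC overlaps CCT3 by 9682 bases. Whether counting used the strand is not given in the sources used here.

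Promoter sequences of 7 of the 8 genes were found in RefSeq (GRCh38.p14), each with 250 bases before and 50 after an annotated start, and CCT6A had no entry. The sequences shown are the stretches of these windows that lie outside annotated exons and upstream of the gene in the expression table, for the subunit with the most positive and the one with the most negative change in SKNMC, TCP1 and CCT2, and for CCT8 as a subunit between them. They were matched to GRCh37 and are written 5′ to 3′ on the strand of the gene. Capitals mark the motifs searched, here a CCAAT box read on the other strand in TCP1 and a GC box read on the other strand in CCT8, and the CCT2 stretch holds none of them.
TCP1, chr6:160210782-160210843, minus strand: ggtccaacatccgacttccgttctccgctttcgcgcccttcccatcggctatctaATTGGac
CCT2, chr12:69978989-69979113, plus strand: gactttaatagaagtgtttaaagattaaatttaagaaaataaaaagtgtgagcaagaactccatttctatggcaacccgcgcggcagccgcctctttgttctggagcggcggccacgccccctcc
CCT8, chr21:30446119-30446219, minus strand: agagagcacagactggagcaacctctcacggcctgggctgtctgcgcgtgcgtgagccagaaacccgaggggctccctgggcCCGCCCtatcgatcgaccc

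Over whole windows and on both strands, the heat shock element GAANNTTC was found in 2 of the 7 genes, CCT2 and TCP1, and in 8.21% of the 27305 genes with a promoter entry. The ETS core CCGGAA was found in CCT2 and CCT5, against 20.1% of all genes, and the pair GGAAGGAA in TCP1 alone, against 4.50%. CCAAT boxes were found in 4 of the 7 (39.7% of all genes) and GC boxes GGGCGG in 5 (48.3%). The E-box CACGTG and the TATA box TATAAA were found in 0 of the 7, and in 8.77% and 14.0% of all genes. Such matches are letters in a window and say nothing about binding. The windows of CCT3, CCT5 and CCT7 and the second window of CCT2, which holds the heat shock element of that gene, begin within the gene as the expression table has it.

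All 8 subunits were strongly expressed. With DMSO the levels ran from 221 FPKM for CCT4 to 449 FPKM for CCT5 in A673, and from 161 FPKM for CCT4 to 446 FPKM for CCT5 in SKNMC. CCT5 was the highest and CCT4 the lowest of the 8 in each of the 6 libraries. By level, the subunits ranked between 144 and 313 among the active genes of A673 with DMSO, and between 134 and 412 in SKNMC. The summed FPKM of the 8 was 0.521% of all listed FPKM in A673 with DMSO and 0.441% in SKNMC. CCT6B, a close relative of CCT6A known from testis, was at 0.451 FPKM in A673 and 0.726 FPKM in SKNMC.

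**Figure D1:**
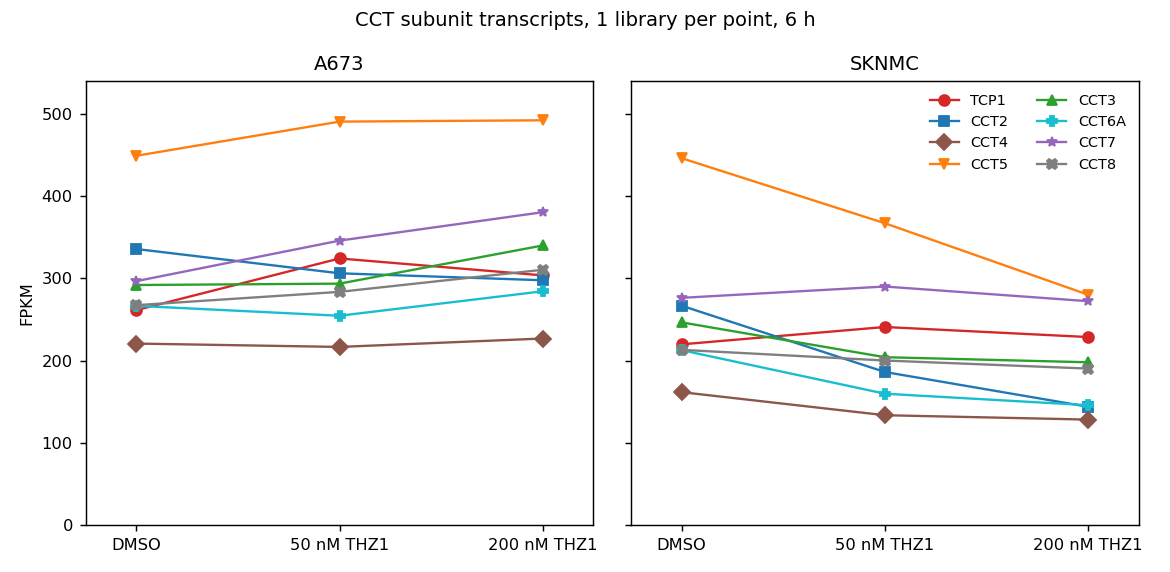
FPKM (vertical axis, from 0) of the 8 CCT subunits with DMSO, 50 nM and 200 nM THZ1 in A673 (left) and SKNMC (right), 1 library per point, with lines joining the doses. In A673 most lines are level or climb, whereas in SKNMC the lines of CCT5 and CCT2 descend and those of TCP1 and CCT7 stay near their DMSO level.

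Without THZ1, the subunits were lower in SKNMC than in A673 in the deposited FPKM. The log2 difference of SKNMC against A673 with DMSO was negative for 8 of 8 subunits, with a median of -0.29, against 46.9% of the 10574 genes active in both lines. CCT4 differed most, at -0.45, and CCT5 least, at -0.0096. When the 75th percentile of active genes was used to scale the libraries, 6 of 8 were lower in SKNMC, with a median of -0.11. Of the genes active in both lines, 63.3% were then higher in SKNMC. No subunit differed by 1.5-fold between the lines in the deposited values, while 16.7% of genes were lower in SKNMC by that much and 20.1% higher. With libraries scaled by the median of their ribosomal protein genes, 7 of 8 were lower by 1.5-fold in SKNMC, with a median of -0.82. The genes active in both lines then had a median of -0.45, and 24.6% of them were higher in SKNMC.

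In A673, most CCT subunits were near or above their DMSO level with THZ1 in the deposited FPKM. At 50 nM, 5 of 8 were higher than with DMSO and at 200 nM 7 of 8, where 29.9% and 29.6% of all active genes were higher. Their median log2 fold change was 0.046 at 50 nM and 0.17 at 200 nM, against -0.27 and -0.40 over all active genes. The direction depends on the scaling. With libraries divided by the median of their ribosomal protein genes, 1 of 8 was higher at 50 nM and 0 of 8 at 200 nM. Of all active genes, 12.6% and 8.54% were then higher. With the 75th percentile all 8 were higher at both doses, against 46.4% and 46.2% of active genes. None of the 8 was lower by 2-fold, which held for 15.9% of active genes at 50 nM and 25.3% at 200 nM, and none was higher by 2-fold, which held for 0.343% and 0.126%. At 1.5-fold, again none was lower, where 31.8% and 41.1% of active genes were.

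CCT7, the eta subunit, was at 297 FPKM with DMSO, 346 FPKM at 50 nM and 380 FPKM at 200 nM in A673. Its log2 fold change of 0.36 at 200 nM was the most positive of the 8. TCP1, the alpha subunit, was at 261, 324 and 304 FPKM, with log2 fold changes of 0.31 and 0.22. Both were thus highest in a THZ1 library and lowest with DMSO. CCT3, the gamma subunit, went from 292 FPKM with DMSO to 294 and 340 FPKM, and CCT8, the theta subunit, from 267 to 284 and 310 FPKM. CCT5, the epsilon subunit, was at 449, 491 and 492 FPKM, nearly the same at both doses. CCT6A, the zeta subunit, was at 267, 254 and 284 FPKM, and CCT4, the delta subunit, at 221, 217 and 227 FPKM. CCT2, the beta subunit, was the exception, at 336 FPKM with DMSO, 306 FPKM at 50 nM and 298 FPKM at 200 nM. Its log2 fold changes of -0.13 and -0.17 were the lowest of the 8 at both doses, and it alone was below DMSO at 200 nM, though with the 75th percentile scaling it was above DMSO at both doses and with the ribosomal protein scaling all 8 were below at 200 nM.

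In SKNMC, most subunits were below their DMSO level in the deposited FPKM, and the range of their changes was wider than in A673. At 50 nM, 6 of 8 were lower than with DMSO and at 200 nM 7 of 8, with 73% and 80.8% of all active genes lower. The median log2 fold change of the 8 was -0.27 at 50 nM and -0.32 at 200 nM, against -0.32 and -0.55 over all active genes. With the 75th percentile scaling the direction of most subunits turned. Then 2 of 8 were lower at each dose, and 45.6% and 46.3% of active genes were higher. With the ribosomal protein scaling 8 of 8 were lower at each dose, and 8.52% and 3.51% of active genes were higher. No subunit was lower by 2-fold in the deposited values at either dose, which held for 15.8% of active genes at 50 nM and 27.3% at 200 nM. None was higher by 2-fold, which held for 0.471% and 0.462%. At 1.5-fold, 0 of 8 were lower at 50 nM, where 33.5% of active genes were, and 2 of 8, CCT2 and CCT5, at 200 nM, where 48% were. With the ribosomal protein scaling these counts were 5 of 8 and 7 of 8. The median of all active genes was then -0.61 and -1.01, so most of them were lower by 1.5-fold too.

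CCT2 was at 267 FPKM with DMSO in SKNMC, 186 FPKM at 50 nM and 144 FPKM at 200 nM. At 200 nM it held 53.9% of its DMSO level, a log2 fold change of -0.89, and 32.3% of active genes had a lower one. CCT5 was at 446, 367 and 280 FPKM, with log2 fold changes of -0.28 and -0.67. For both genes the level was lower at each higher dose. CCT6A was at 213, 160 and 146 FPKM, CCT3 at 246, 204 and 198 FPKM, and CCT4 at 161, 133 and 128 FPKM. These 3 subunits had most of their difference already at 50 nM. CCT8 was at 213, 200 and 190 FPKM. CCT7 was at 276 FPKM with DMSO, 290 FPKM at 50 nM and 272 FPKM at 200 nM, and TCP1 was at 220, 241 and 229 FPKM. TCP1 alone was above its DMSO level at both doses in the deposited FPKM of SKNMC, with log2 fold changes of 0.13 and 0.057, while CCT7 was also above with the common sum, more subunits were with the 75th percentile scaling, and none was above DMSO with the ribosomal protein scaling.

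**Figure D2:**
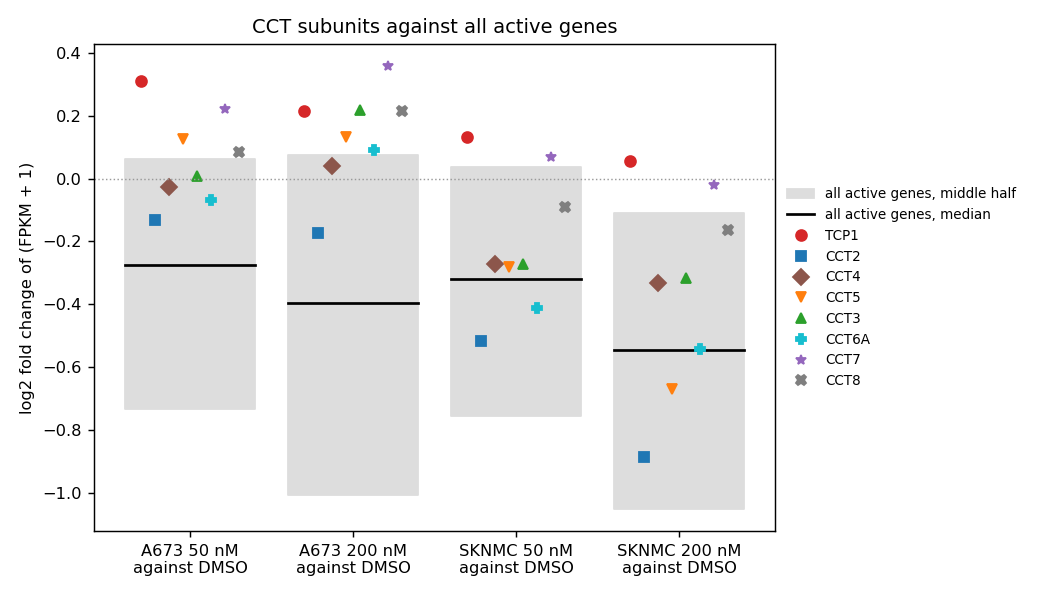
Log2 fold change of (FPKM + 1) against DMSO (vertical axis) for the 8 CCT subunits in the 4 THZ1 comparisons, 1 symbol per subunit, with the interquartile range of all active genes in grey and their median as a line. CCT2 is the lowest symbol in each comparison, from -0.13 in A673 at 50 nM to -0.89 in SKNMC at 200 nM.

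The step from 50 nM to 200 nM was small for most subunits. In A673, 6 of 8 were higher at 200 nM than at 50 nM (48.3% of active genes were), with a median of 0.098 on the log2 scale. The step ran from -0.094 for TCP1 to 0.21 for CCT3. In SKNMC, 8 of 8 were lower at 200 nM than at 50 nM (62% of active genes were), with a median of -0.083. CCT5 and CCT2 differed most, at -0.39 and -0.37, and the other 6 lay between -0.13 for CCT6A and -0.044 for CCT3. With the 75th percentile scaling, all 8 were higher at 200 nM in A673 and 6 of 8 in SKNMC, against 56.4% and 57.1% of active genes. With the ribosomal protein scaling 2 of 8 and 0 of 8 were higher, against 34.1% and 21.2%.

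The change with THZ1 was lower in SKNMC than in A673 for 8 of 8 subunits at each dose. Over all genes active in both lines this held for 53.4% at 50 nM and 61.9% at 200 nM, and over the 631 genes above 100 FPKM with DMSO in both lines for 55.2% and 68.8%. The median difference, SKNMC minus A673 on the log2 scale, was -0.26 at 50 nM and -0.46 at 200 nM for the 8 subunits, against -0.022 and -0.12 for all genes active in both lines. At 200 nM the difference was largest for CCT5 at -0.80 and CCT2 at -0.71, and smallest for TCP1 at -0.16. Of the genes active in both lines, 4.39% had a lower difference than CCT5 and 6.77% a lower one than CCT2. With the 75th percentile scaling, 8 of 8 were lower in SKNMC at 50 nM and 7 of 8 at 200 nM, and with the common sum or the ribosomal protein scaling 8 of 8 were at both doses. Each line has 1 DMSO library, shared by both doses, and this contrast of the lines was not tested.

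A test of THZ1 over both lines was made with limma on log2(FPKM + 1), with a term for the line and one for the treatment, over the 10574 genes active in both lines. With 1 library per condition this fit has 2 residual degrees of freedom. Its error is the disagreement between the lines, partly borrowed from genes of like level, and not the spread between replicate cultures. At 200 nM, CCT2 fell, with a mean log2 fold change over the lines of -0.53 ± 0.15 (SE) and an adjusted p of 0.0080 (limma, Benjamini-Hochberg), and it was lower in 2 of 2 lines. It was the only subunit to pass an adjusted p of 0.05 in the deposited FPKM, so that 1 of 8 was called lower and 0 higher, against 52.7% and 6.08% of the genes tested. The call of CCT2 rests on single libraries of SKNMC: without its 200 nM library the mean was -0.27, with an adjusted p of 0.13 in limma, and without its DMSO library -0.26, with an adjusted p of 0.12. At 50 nM, 0 of 8 passed in either direction, against 38.5% lower and 5.12% higher, and CCT2 alone had an unadjusted p under 0.05, with an adjusted p of 0.090 in limma. For the step from 50 nM to 200 nM, 0 of 8 passed or had an unadjusted p under 0.05, against 23.2% lower and 3.37% higher. Other libraries moved the mean of CCT2 too. At 200 nM it was -0.80 without the DMSO library of A673 and -0.79 without the 200 nM library of that line. At 50 nM it was -0.60 without the DMSO library of A673. Which subunits were called over these fits, and in which direction, depended on the library left out. The calls depend on the scaling. With the 75th percentile, 5 of 8 were called higher at 200 nM, against 24.7% of the genes tested, and CCT2 was not called. With the ribosomal protein genes all 8 were called lower, against 79.5% of the genes tested.

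The line term of the same limma fit, over the 3 treatments, was negative for 8 of 8 subunits, and all 8 passed the threshold, against 29.5% of genes called lower in SKNMC and 31.2% called higher. It ran from -0.28 ± 0.091 (SE) for CCT7, with an adjusted p of 0.020, to -0.70 ± 0.12 for CCT2, with an adjusted p of 0.00037. CCT4 had the smallest adjusted p, 0.00014, at -0.65 ± 0.097. Each line has 1 library per treatment, and the term averages over DMSO and THZ1, so it also holds differences in response. With DMSO alone, CCT2 differed by -0.33 and CCT5 by -0.0096, against line terms of -0.70 and -0.41. The adjusted p values of the term are therefore not a test of the DMSO levels. With the 75th percentile scaling, 5 of 8 passed, all lower in SKNMC, against 20.1% of genes called lower and 43.8% called higher. With a library left out, the line term of CCT2 ran from -0.88 to -0.52.

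The genes above 100 FPKM, a limit chosen after the levels of the subunits were seen, give a background of similar expression. Of these 631 genes, 73.7% were higher than with DMSO at 50 nM in A673 and 74.3% at 200 nM, and 67.4% and 52.8% in SKNMC. The counts for the CCT subunits, 5 and 7 of 8 in A673 and 2 and 1 of 8 in SKNMC, stand beside these shares. The median log2 fold change of the 631 genes was 0.17 and 0.24 in A673 and 0.13 and 0.042 in SKNMC. The CCT medians were below these in each of the 4 comparisons. The shares past 2-fold and 1.5-fold given above are over all active genes. How many of the 631 genes passed these thresholds is not given here.

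**Figure D3:**
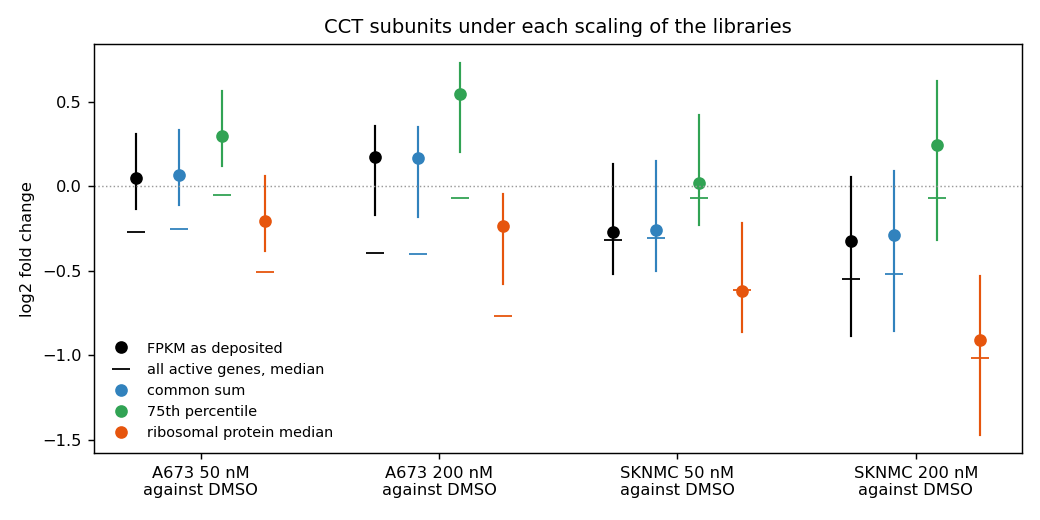
Median (points) and range (bars) of the log2 fold change of the 8 CCT subunits in the 4 THZ1 comparisons (vertical axis) under the deposited FPKM, a common sum, the 75th percentile of active genes and the median of ribosomal protein genes, with dashes for the median of all active genes. In SKNMC at 200 nM the subunit median runs from -0.91 with the ribosomal protein scaling to 0.24 with the 75th percentile.

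The proportions of the subunits within a library do not depend on any scaling of the library. The ring takes up the 8 proteins in equal numbers, while the highest transcript with DMSO was 2.04 times the lowest in A673 and 2.76 times in SKNMC. At 200 nM THZ1 these ratios were 2.17 and 2.19. In A673 the ratio of CCT2 to TCP1 was 1.28 for DMSO, 0.944 for 50 nM THZ1 and 0.980 for 200 nM THZ1. In SKNMC it was 1.21, 0.773 and 0.629. CCT2 was thus the more abundant of these transcripts with DMSO in both lines and the less abundant in all 4 THZ1 libraries, in A673 by a narrow margin. These 2 are the most negative and the most positive subunit in SKNMC, and each ratio comes from 1 library. The ratio of CCT5 to CCT7 was 1.51, 1.42 and 1.29 in A673, and 1.61, 1.27 and 1.03 in SKNMC. Among the 28 pairs of subunits, the ratio differed from DMSO by at least 1.5-fold for 0 pairs at each dose in A673, and for 2 pairs at 50 nM and 6 at 200 nM in SKNMC. The pairs share subunits, and each of the 6 at 200 nM holds CCT2, CCT5 or CCT6A. Pairs of other genes were not counted in this way.

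**Figure D4:**
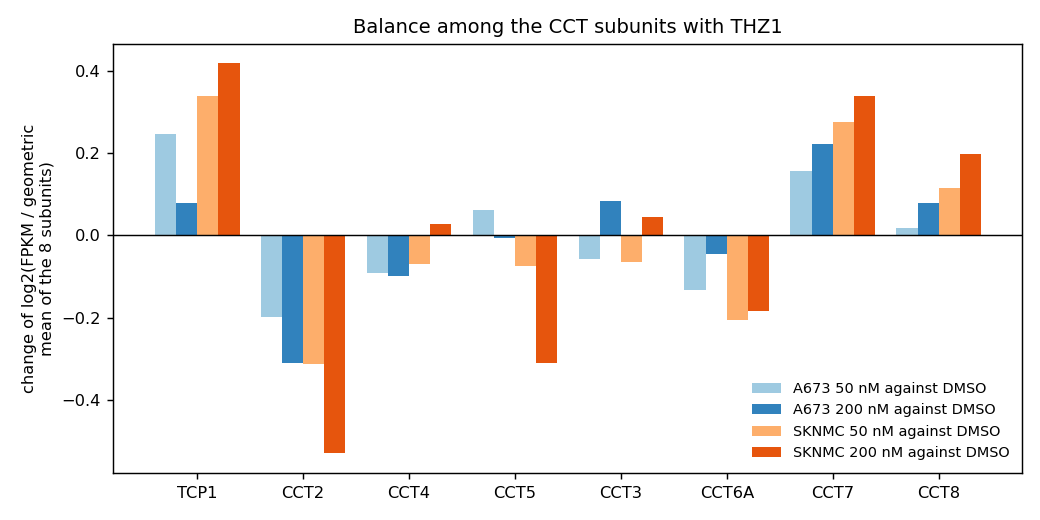
Change against DMSO of the log2 ratio of each CCT subunit to the geometric mean of the 8 (vertical axis), with 1 bar per THZ1 comparison. CCT2 and CCT6A lie below 0 and TCP1, CCT7 and CCT8 above 0 in each of the 4 comparisons, and CCT2 reaches -0.53 in SKNMC at 200 nM.

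Measured against the geometric mean of the 8, CCT2 was lower with THZ1 by 0.20 to 0.53 on the log2 scale over the 4 comparisons and CCT6A by 0.045 to 0.21. TCP1 was higher by 0.079 to 0.42, CCT7 by 0.16 to 0.34 and CCT8 by 0.019 to 0.20. CCT3, CCT4 and CCT5 lay on both sides of 0. CCT2 made up 13.1% of the summed FPKM of the subunits with DMSO in SKNMC and 9.06% at 200 nM, and CCT7 13.5% and 17.2%. By the sides of the ring, TCP1, CCT2, CCT4 and CCT5 had a median log2 fold change at 200 nM of 0.086 in A673 and -0.50 in SKNMC. For CCT3, CCT6A, CCT7 and CCT8 it was 0.22 and -0.24. The former side holds both TCP1 and CCT2, the most positive and the most negative subunit in SKNMC.

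The neighbours of the CCT genes were looked at after the values of the members were known. Of the 8 genes, 5 start within 1000 bases of a listed gene on the other strand. Both genes are read away from the DNA between their starts, except for CCT4 and COMMD1, whose first bases overlap. TCP1 starts 63 bases from MRPL18, which encodes a protein of the large mitochondrial ribosomal subunit. The stretch of TCP1 shown above is the DNA between the 2 starts. MRPL18 was at 55.7 FPKM with DMSO, 37.9 FPKM at 50 nM and 30.1 FPKM at 200 nM in A673, and at 48.5, 31.7 and 16.9 FPKM in SKNMC. Its log2 fold changes of -0.54 and -0.87 in A673 and -0.60 and -1.47 in SKNMC stand against 0.31, 0.22, 0.13 and 0.057 for TCP1. The difference between the neighbours, TCP1 minus MRPL18, ran from 0.73 to 1.52 and is free of any scaling apart from the added 1.

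CCT5 starts 24 bases from FAM173B, a gene for a mitochondrial protein methyltransferase, which was at 13.7, 6.91 and 11.1 FPKM in A673 and at 29.5, 13.7 and 14.9 FPKM in SKNMC. CCT6A starts 26 bases from PSPH, whose product makes serine from phosphoserine, with log2 fold changes from -0.82 in SKNMC at 50 nM to -0.19 in A673 at 200 nM. PRADC1 starts 182 bases from CCT7, with log2 fold changes from -0.66 to 0.081. In these pairs and in that of TCP1, the log2 fold change of the CCT gene was above that of its neighbour in each of the 4 comparisons. CCT4 was the reverse: its neighbour COMMD1, a regulator of copper handling, starts 80 bases away and had log2 fold changes of 0.23 and 0.25 in A673 and 0.18 and 0.012 in SKNMC, above those of CCT4 in each comparison. CCT4 and COMMD1 overlap by the 81 bases named above, and the CCT gene was more strongly expressed than its neighbour in each pair. The neighbours were all below 100 FPKM. The 631 genes above 100 FPKM had a higher median log2 fold change than all active genes in each of the 4 comparisons. How often a strongly expressed gene lies above a weaker neighbour among other such pairs was not tested.

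**Figure D5:**
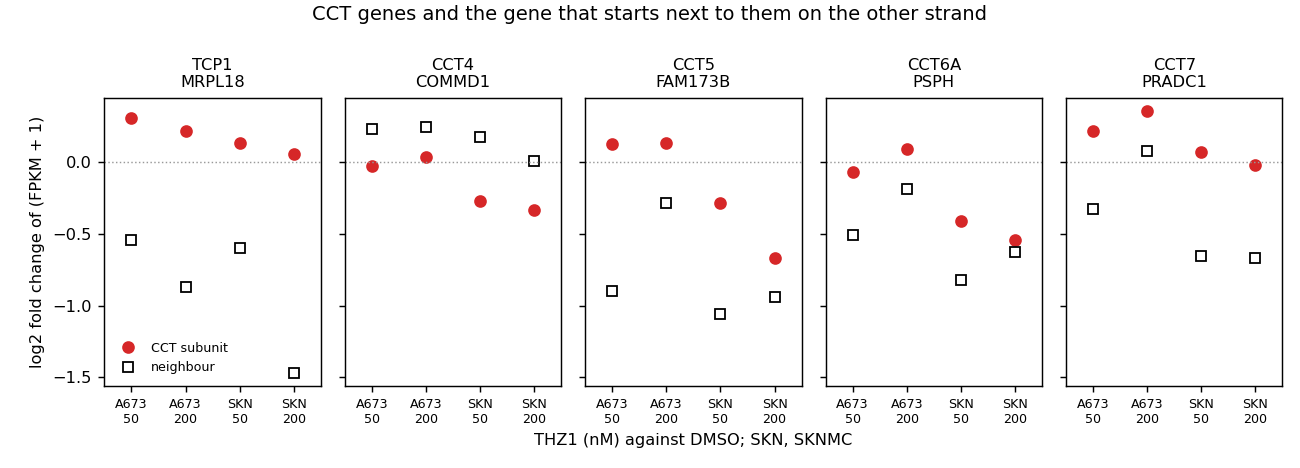
Log2 fold change of (FPKM + 1) against DMSO (vertical axis) of 5 CCT genes (filled circles) and the gene that starts next to each on the other strand (open squares), for A673 and SKNMC at 50 nM and 200 nM THZ1. TCP1 and MRPL18 are farthest apart in SKNMC at 200 nM, by 1.52, and CCT4 alone lies below its neighbour.

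Other genes of the folding pathway were taken from lists rather than for their values. Of the 6 prefoldin subunits, 0 differed from DMSO by 2-fold in any comparison, with median log2 fold changes of 0.12 and 0.095 in A673 and -0.039 and -0.45 in SKNMC at 50 nM and 200 nM. PFDN5 was above DMSO in each comparison in the deposited FPKM, at 225 FPKM with DMSO and 307 FPKM at 200 nM in SKNMC, while the other 5 were below DMSO there. The 3 active phosducin-like cofactors were lower than with DMSO in each comparison in the deposited FPKM, and PDCL2 was not active. TXNDC9, a cofactor that binds the ring with its substrate, was at 26.2 FPKM with DMSO, 16.0 FPKM at 50 nM and 9.54 FPKM at 200 nM in SKNMC, and PDCL3 at 22.9, 13.9 and 10.6 FPKM. These 2 genes were lower by 2-fold at 200 nM in SKNMC, and 0 of the 3 were in A673, where PDCL at 200 nM was just short of 2-fold and passed it with a pseudocount of 0.1, at -1.07 on the log2 scale.

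Among the substrates, ACTB and ACTG1, which encode the cytoplasmic actins, had log2 fold changes between -0.038 and 0.27. Of 11 tubulin genes, 0 differed from DMSO by 2-fold in any comparison, with medians from -0.27 in SKNMC at 200 nM to 0.018 in SKNMC at 50 nM. Of 8 substrates with WD40 repeats, FZR1 and RPTOR were lower by 2-fold at 200 nM in A673 and FZR1 in SKNMC. With a pseudocount of 0.1, RPTOR also passed 2-fold in SKNMC at 200 nM, at -1.01, and FZR1 in A673 at 50 nM, at -1.03. FZR1, an activator of the anaphase-promoting complex, was at 24.2 FPKM with DMSO and 4.66 FPKM at 200 nM in A673, and at 16.6 and 4.52 FPKM in SKNMC. The 5 tubulin cofactors, which act after the ring, had medians of -0.11 and 0.055 in A673 and 0.093 and -0.041 in SKNMC, and of these TBCC alone was lower by 2-fold, at 200 nM in A673.

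The chaperonin of mitochondria, HSPD1 with its lid HSPE1, had median log2 fold changes of 0.0028 and 0.20 in A673 and -0.15 and -0.16 in SKNMC. The 3 chaperonin-like genes of Bardet-Biedl syndrome, which are related to the CCT subunits in sequence, lay below HSPD1 and HSPE1 in each comparison. MKKS was nevertheless above DMSO in A673 at 200 nM, at 0.055 on the log2 scale. BBS10 was at 5.34 FPKM with DMSO and 0.979 and 0.792 FPKM with THZ1 in A673, and at 7.76, 1.14 and 0.973 FPKM in SKNMC. BBS12 was also lower by 2-fold in each comparison and was listed at 0 in A673 at 200 nM, and MKKS was lower by 2-fold in none. The core particle of the proteasome, another ring built of many different subunits, had medians over its 14 genes of 0.21 and 0.22 in A673 and 0.072 and -0.14 in SKNMC, and 0 of its genes differed from DMSO by 2-fold. Differences between the CCT subunits and these lists were not tested.

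The genes most like the CCT subunits over the 6 libraries were sought among the 5986 genes that exceeded 10 FPKM with DMSO in each line and were detected in every library. Likeness was the root mean square difference of log2(FPKM + 1), centred per gene, from the mean profile of the 8. The closest were DAP3, a protein of the small mitochondrial ribosomal subunit, at 0.032, ADH5, which clears formaldehyde, at 0.037, and RNF7, a RING subunit of cullin ligases, at 0.039. EIF6, a factor of ribosome assembly, at 0.041 and the lipid kinase PI4K2B at 0.045 followed. DAP3 was at 92.3, 90.1 and 97.9 FPKM in A673 and at 74.0, 62.8 and 57.2 FPKM in SKNMC. The CCT subunits themselves differed from their mean by 0.052 for CCT3 to 0.20 for CCT2. Of the genes outside the complex, 675 lay no farther from the mean than CCT2 did.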

How the data were processed

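Total RNA of A673 and SKNMC cells was sequenced as 100-bp paired-end reads, which the authors aligned to hg19 with STAR and Ensembl 75. The deposited FPKM values were estimated with StringTie according to the paper, while the submitters' processing notes list STAR and Cufflinks. Versions are not given in the sources used here. The table is headed as averages, but the labels give 1 library per condition. The authors' deposited log2 fold changes, 4 columns of THZ1 against DMSO, were not used.

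The table lists 20311 protein-coding and 7109 lincRNA genes. Fold changes used a pseudocount of 1, active genes had more than 1 FPKM in the DMSO library of the line, and thresholds were 2-fold and, as an alternative, 1.5-fold. The 6 libraries were also fitted with limma 3.58.1 in R 4.3.3 with line and treatment as terms and a trend in the variance, a test added after the data were seen, with Benjamini-Hochberg adjustment over the 10574 genes active in both lines. Steps between low FPKM values put the depth of THZ1 libraries roughly at 89.0% to 96.8% of their DMSO library; under 1% of low values sat at the step, so absolute depth is unknown and no counting interval is given. For symbols with several rows, the row with the highest mean was used. Starts in the table count from 0 and are given from 1. Exons and pseudogenes came from GENCODE release 44 on GRCh37. The members, lists, motifs and named genes (the members, the listed pathway genes and the 5 genes of most like profile) were chosen with earlier results of these data known. Calculations used Python 3.11.15, pandas 2.3.3 and numpy 2.4.6, and were tested on simulated data.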

Additional observations from a re-analysis of the deposited data

Results flagged for a closer look

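CCT5, CCT3 and CCT8 were above their DMSO level at both doses in A673 and below it at both doses in SKNMC. The log2 fold changes at 50 nM and 200 nM were 0.13 and 0.13 in A673 and -0.28 and -0.67 in SKNMC for CCT5. They were 0.0083 and 0.22 against -0.27 and -0.31 for CCT3, and 0.084 and 0.21 against -0.090 and -0.16 for CCT8. How far these responses differ between the lines was not tested, and both doses share a DMSO library. With the 75th percentile scaling, CCT3 and CCT8 were above DMSO at both doses in SKNMC as well and CCT5 at 50 nM, and with the ribosomal protein scaling all 3 were below DMSO at both doses in both lines. The same signs were found for 464 (4.39%) of 10574 genes with activity in each line, and the opposite signs for 93.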

How the results depend on the processing

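A pseudocount of 0.1 and rescaling to a common sum moved no median and none of the 32 single subunit values by 0.1 or more on the log2 scale. Scaling by the 75th percentile of the active genes or by the median of ribosomal protein genes moved all 32 by more, and moved the median of all active genes between 0.22 and 0.48 and between -0.24 and -0.47 in the 4 comparisons with DMSO. The subunit medians with the 75th percentile were 0.30 and 0.55 in A673 and 0.018 and 0.24 in SKNMC at 50 nM and 200 nM. With the ribosomal protein genes they were -0.20 and -0.23 in A673 and -0.62 and -0.91 in SKNMC. In SKNMC at 200 nM, 3 of 8 subunits were then lower by 2-fold, where the median of all active genes was itself past 2-fold, at -1.01. For the step from 50 nM to 200 nM, the subunit medians were 0.22 and -0.059 in A673 and 0.19 and -0.32 in SKNMC under the 2 scalings. For SKNMC against A673 with DMSO they were -0.11 and -0.82. Which scaling is closest to RNA per cell was not tested. At a 1.5-fold threshold, 2 subunits were lower in SKNMC at 200 nM, or 7 with the ribosomal protein genes, where the median of all active genes was -1.01. Without a filter on low values, the share of genes lower by 2-fold was 9.53% and 15.1% in A673 and 9.68% and 16.6% in SKNMC, since many genes near 0 entered. A minimum of 10 FPKM and protein-coding genes alone kept these shares within 1.5 times. By Pearson correlation in place of the difference of profiles, 3 of the 5 genes most like the subunits were shared. In the limma fit that pairs the treatments by line, chosen after seeing the data, the subunits past an adjusted p of 0.05 numbered 0 at 50 nM, 1 at 200 nM and 8 for SKNMC against A673. With the 75th percentile scaling they were 3 (all higher, against 17.8% of genes), 5 (all higher, against 24.7%) and 5 (all lower in SKNMC, against 20.1%). With the ribosomal protein genes they were 5 (all lower, against 58.3%), 8 (all lower, against 79.5%) and 8 (all lower in SKNMC, against 59.2%). The counts with a common sum or a pseudocount of 0.1 were those of the deposited FPKM. Leaving out a library leaves 1 library in its treatment. Over these fits the mean of CCT2 ran from -0.60 to -0.050 at 50 nM and from -0.80 to -0.26 at 200 nM. It ran from -0.47 to 0.056 for the step between the doses and from -0.88 to -0.52 for the lines. Which subunits were called at 200 nM, and in which direction, depended on the library left out.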
